A study of Mus musculus with 8 samples.

Results

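The miR-29 family was measured in whole kidneys of diabetic db/db mice and controls, using 8 Agilent arrays with 1 dye and 1 array per sample. Its members were the rows of the scanner files that carry 1 of 7 names, mmu-miR-29a-3p, mmu-miR-29b-3p, mmu-miR-29c-3p, mmu-miR-29a-5p, mmu-miR-29c-5p, mmu-miR-29b-1-5p and mmu-miR-29b-2-5p, out of 1881 mouse miRNAs on the array. The 4 control samples are titled dbm and come, per the source and strain labels, from m/m mice of the strain C57BLKS/J Iar -m+/m+. The 4 db/db samples come from the strain C57BLKS/J Iar -+Leprdb/+Leprdb, which carries the leptin receptor mutation in the whole body. Because dbm and m/m are different names, the labels do not settle if the controls had a db allele. All mice were males aged 28 weeks, and Cy3 was put on 100 ng of kidney total RNA per sample. Nothing in the labels says that the samples are separate animals, and the p-values then cover only sample-to-sample spread, which may be technical. In RNA of a whole kidney, fewer cells of a type and less RNA per cell cannot be told apart.

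MicroRNAs pair with messenger RNAs mainly through a short seed near their 5′ end and lower the stability and translation of those messages. The miR-29 family is best known for repressing collagens and other extracellular matrix genes, among them elastin and fibrillin. Transforming growth factor beta lowers it in many fibrotic tissues, the kidney included. In the processing of each hairpin, the 3p strand is the one that mostly persists and the 5p strand the one that is mostly discarded.

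Mature sequences were found for 7 of 7 members in RefSeq (GRCm38.p6), from 4 hairpin genes. They are printed 5′ to 3′ with bases 2 to 8, the seed, in capitals. The 3p strands share a seed that no 5p strand has.
miR-29a-3p: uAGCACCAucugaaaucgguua
miR-29b-3p: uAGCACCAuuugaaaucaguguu
miR-29c-3p: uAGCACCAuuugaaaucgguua
miR-29a-5p: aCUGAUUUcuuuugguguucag
miR-29c-5p: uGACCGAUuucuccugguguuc
miR-29b-1-5p: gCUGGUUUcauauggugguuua
miR-29b-2-5p: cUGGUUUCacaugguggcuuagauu
The 3 3p strands share 1 seed, which no other of the 1679 mature miRNA names in the RefSeq table carries, and the 4 5p strands have 4 different seeds. Counted from 1 at the 5′ end, miR-29c-3p differs from miR-29a-3p by C10U alone. miR-29b-3p differs from miR-29a-3p by C10U, G18A, U21G and A22U and has 1 base more.

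The family lies in 2 clusters. In the mm9 positions that the scanner files give for the probes' targets, miR-29a-3p lies at chr6:31012716-31012734 and miR-29b-3p at chr6:31013071-31013091, 336 bases apart. The second cluster holds miR-29b-3p again at chr1:196863287-196863307 and miR-29c-3p at chr1:196863795-196863815, 487 bases apart. Both clusters give the same mature miR-29b-3p, so its signal cannot be assigned to either, while miR-29a-3p comes from chromosome 6 only and miR-29c-3p from chromosome 1 only. The 3p strands were read by 2 probes each, all of which reach the 3′ end of the mature miRNA. Those of miR-29c-3p cover bases 2 to 22 and 1 to 22, the seed included. The probes of miR-29a-3p have 1 mismatch to miR-29c-3p and those of miR-29c-3p have 1 mismatch to miR-29a-3p. How far either probe set read the other strand was not tested.

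Levels are log2 signals after scaling, which gave every array 1 common 75th percentile over the 269 miRNAs that all 8 arrays detected, and a change is the db/db mean minus the control mean. Of the 7 members, 6 were detected on all 8 arrays and were tested among 316 miRNAs. With limma and Benjamini-Hochberg adjustment over the 316, 0 of the 6 passed an adjusted p of 0.05, against 132 of the 316 (41.8%). The count was also 0 at an unadjusted p under 0.05, against 162 of the 316. It was 0 with limma's trend and robust options, against 149 of the 316, and with the replicate number as a block, against 144. At an adjusted p of 0.05 the count was 1 with quantile normalization, miR-29a-5p, against 145 of the 316. With scaling to the labelling spike-ins it was 4, against 166. The median size of a change was 0.17 over the miRNAs tested, and 5 of the 6 members were smaller than that, with miR-29b-1-5p the exception. The median change was 0.08 over the 6 members and -0.02 over all tested.

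The 3p strands carry the matrix-repressing seed and were among the bright signals of these arrays, at the 97.5, 97.2 and 94.6 percentiles of the miRNAs tested for miR-29a-3p, miR-29b-3p and miR-29c-3p. All of their spots were well above background on every array.

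mmu-miR-29a-3p had log2 levels of 12.53, 12.63, 12.62 and 12.63 in the controls (replicates 1 to 4, the order used throughout), and 12.62, 12.56, 12.52 and 12.53 in the db/db samples. Its 1 low control and 1 high db/db sample made the groups overlap. The change was -0.05 (SE 0.04, 95% interval -0.15 to 0.05, n = 4 per group; limma adjusted p = 0.401), or -3.25% on the linear scale with an interval of -9.75% to 3.73%.

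mmu-miR-29b-3p had log2 levels of 12.41, 12.45, 12.44 and 12.42 in the controls, and 12.59, 12.50, 12.47 and 12.46 in the db/db samples. Each db/db sample lay above each control, with db/db replicate 1 the highest and the other 3 close to the controls. The change was 0.08 (SE 0.04, interval -0.02 to 0.17, limma adjusted p = 0.161), or 5.65% (-1.07% to 12.8%). It was the 1 tested member whose groups did not overlap, as for 131 of the 316 miRNAs (41.5%). Its pooled SD within groups was 0.04, at the 10.4 percentile of the miRNAs tested.

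mmu-miR-29c-3p had log2 levels of 12.00, 12.10, 12.04 and 12.01 in the controls, and 12.15, 12.12, 12.08 and 12.09 in the db/db samples. Control replicate 2 reached into the range of the db/db samples, and the other 3 controls lay below all of them. The change was 0.07 (SE 0.04, interval -0.02 to 0.16, limma adjusted p = 0.193), or 5.07% (-1.48% to 12.0%). A p above the threshold does not show that the 3 strands were equal in the groups; the intervals give the changes that these arrays leave possible.

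**Figure D1:**
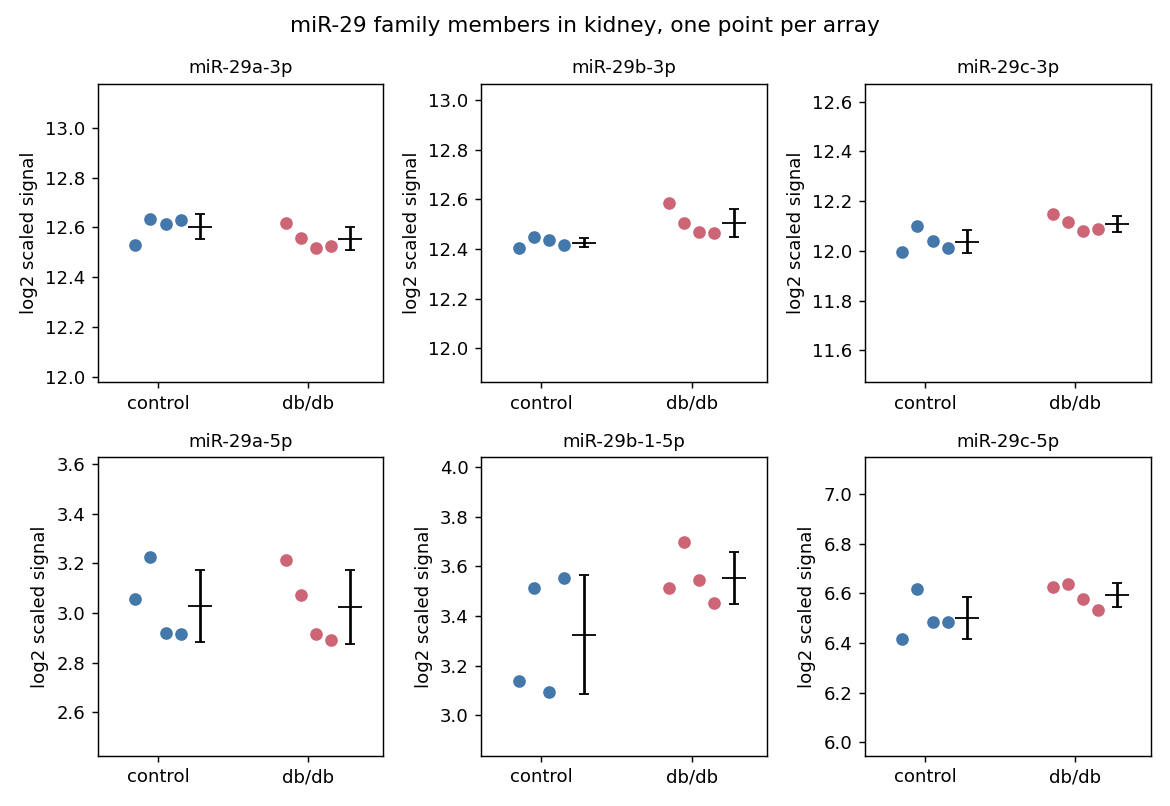
Log2 scaled signal of the 6 detected miR-29 members, 1 point per array, with control arrays in blue and db/db arrays in red; black bars give the mean and SD of 4 arrays, and all panels span the same number of log2 units. miR-29b-3p is the member whose groups do not overlap, and the dim 5p strands miR-29a-5p and miR-29b-1-5p scatter most.

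The 5p strands have seeds other than that of the 3p strands. mmu-miR-29c-5p had log2 levels of 6.42, 6.62, 6.48 and 6.48 in the controls and 6.63, 6.64, 6.58 and 6.53 in the db/db samples, so control replicate 2 again lay within the db/db range. Its change was 0.09 (SE 0.05, interval -0.03 to 0.22, limma adjusted p = 0.197), close to that of its partner strand miR-29c-3p. Over the 8 arrays the 2 strands of miR-29c had a Pearson correlation of 0.94, and of 0.90 after the group means were removed. These points share array and labelling reaction, so the value is a description.

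mmu-miR-29b-1-5p had log2 levels of 3.14, 3.51, 3.10 and 3.55 in the controls and 3.51, 3.70, 3.54 and 3.45 in the db/db samples. The controls held 2 low and 2 high samples, of which the high ones overlapped the db/db group. The change was 0.23 (SE 0.12, interval -0.05 to 0.50, limma adjusted p = 0.161). Only 23.8% of its spots were well above background. Of its 4 probes, 1 stood at the floor on all 8 arrays and another on 7.

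mmu-miR-29a-5p had log2 levels of 3.06, 3.22, 2.92 and 2.91 in the controls and 3.21, 3.07, 2.92 and 2.89 in the db/db samples, nearly the same range in both groups. The change was -0.01 (SE 0.10, interval -0.23 to 0.22, limma adjusted p = 0.962), with 15% of its spots well above background. Among its 4 probes, 1 stood at the floor on all 8 arrays and another on 4. At this signal the arrays leave any change of miR-29a-5p within its interval possible. mmu-miR-29b-2-5p was detected on 0 of the 8 arrays, with unscaled signals from -1.06 to 0.40, and no spot of it was well above background.

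The direction of 4 members depended on how the arrays were scaled or summarised. Without scaling, the 75th percentile was 8.52 ± 0.11 (SD, n = 4) in the controls and 8.65 ± 0.07 (n = 4) in the db/db samples on the log2 scale, a difference of 0.13 (2-sided exact permutation test, p = 0.0857, smallest possible 0.0286). Without scaling the median change of all 316 miRNAs moved from -0.02 to 0.10, and with scaling to the labelling spike-ins to 0.15. Under these 2 settings the change of miR-29a-3p turned to 0.08 and 0.13 and that of miR-29a-5p to 0.12 and 0.17. Before scaling, the groups did not overlap in 2 of the 6 members, miR-29c-3p and miR-29c-5p, both higher in db/db, as for 39.6% of all tested. The main scaling, no scaling and the spike-ins differ by a single factor per array. Changes set against the median of the 316 miRNAs were therefore bound to agree between them. These changes were -0.02 for miR-29a-3p, 0.10 for miR-29b-3p, 0.10 for miR-29c-3p, 0.12 for miR-29c-5p and 0.25 for miR-29b-1-5p. Quantile normalization, which is not such a factor, gave 0.06, 0.10, 0.06, 0.14 and 0.12 in the same order. Normexp background correction gave 0.04, 0.16, 0.15, 0.09 and 0.02. For miR-29a-5p such a change was 0.02 with the main scaling, -0.14 with quantile normalization and -0.02 with normexp. With the spike-ins, 4 of the 6 members passed the test, miR-29b-3p (0.26, limma adjusted p = 0.0123), miR-29c-3p (0.25, 0.0152), miR-29c-5p (0.27, 0.0156) and miR-29b-1-5p (0.40, 0.0252). The background rose as well, to 166 of the 316 miRNAs (52.5%). miR-29c-3p turned to -0.01 when each miRNA was read from its brightest probe, a setting that also moved the median of all miRNAs to -0.07. miR-29b-1-5p turned to -0.05 with normexp background correction.

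**Figure D2:**
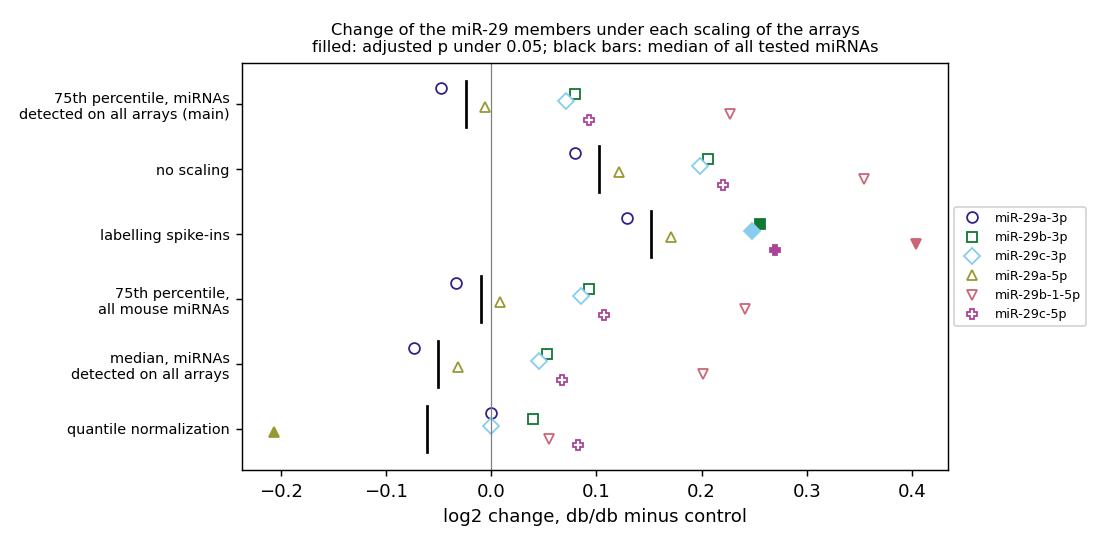
Log2 change between db/db and control of each tested miR-29 member under 6 scalings of the arrays; filled symbols passed a limma adjusted p of 0.05 and black bars mark the median change of all tested miRNAs. Without scaling and with the labelling spike-ins the members and the black bar move right together, which puts miR-29a-3p and miR-29a-5p above 0, and quantile normalization puts miR-29a-5p at -0.21.

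Because a factor common to an array cancels in the difference between miRNAs on that array, the 3p strands were also compared with each other inside each array. The difference itself is not read, since probes differ in brightness at equal abundance; its shift between the groups is. The 3 pairs of strands were compared with 2-sided exact permutation tests over 70 assignments of the arrays, where the smallest possible p is 0.0286, adjusted over the 3 pairs. The changes of the single strands were known when these pairs were chosen.

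miR-29b-3p minus miR-29a-3p was -0.12, -0.19, -0.18 and -0.22 in the controls and -0.03, -0.05, -0.05 and -0.06 in the db/db samples. The groups did not overlap, as was so for 73 of 153 pairs (47.7%) among the 18 tested miRNAs at least as bright as miR-29c-3p. The mean moved from -0.18 ± 0.04 to -0.05 ± 0.01 (SD, n = 4 each), a shift of 0.13 or 1.09-fold in favour of miR-29b-3p (exact permutation p = 0.0286, adjusted p = 0.0429).

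miR-29c-3p minus miR-29a-3p was -0.53, -0.53, -0.57 and -0.62 in the controls and -0.47, -0.44, -0.44 and -0.44 in the db/db samples, again without overlap. The mean moved from -0.57 ± 0.04 to -0.45 ± 0.02 (SD, n = 4 each), a shift of 0.12 or 1.09-fold in favour of miR-29c-3p (exact permutation p = 0.0286, adjusted p = 0.0429). The median size of this shift over the 153 bright pairs was 0.14, so both shifts were below it. Neither shift passed the threshold without db/db replicate 1, at 0.12 for miR-29b-3p and 0.13 for miR-29c-3p with an exact permutation adjusted p of 0.0857 for both. Under quantile normalization they were 0.04 and 0 (exact permutation adjusted p = 1 for both), a setting that gives miR-29a-3p one value throughout because it held rank 9 on all 8 arrays.

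miR-29c-3p minus miR-29b-3p was -0.41, -0.35, -0.39 and -0.40 in the controls and -0.44, -0.39, -0.39 and -0.38 in the db/db samples. The groups overlapped, with a shift of -0.01 (exact permutation p = 0.714).

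**Figure D3:**
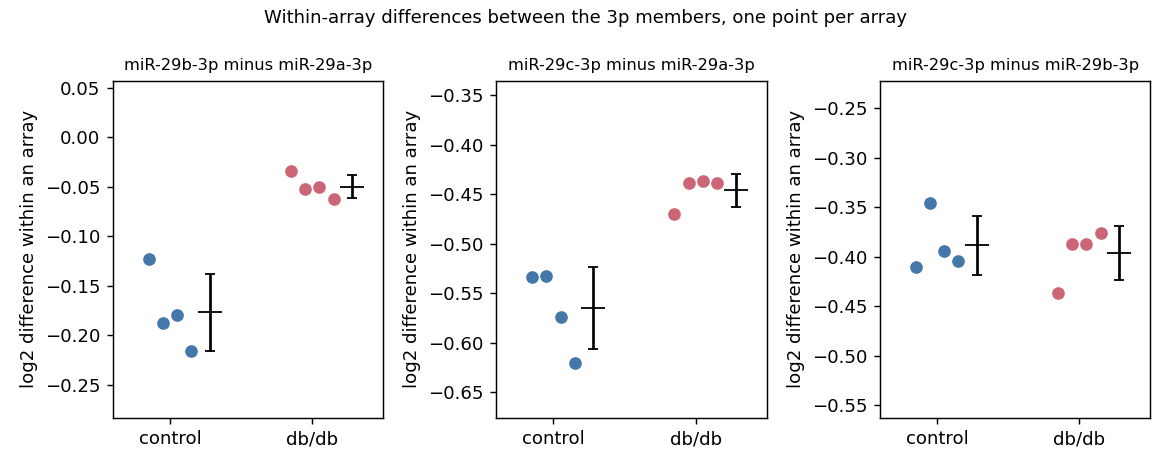
Difference in log2 scaled signal between each pair of miR-29 3p strands on the same array, 1 point per array, with control in blue and db/db in red; black bars give the mean and SD of 4 arrays. Both differences from miR-29a-3p lie higher in all 4 db/db arrays than in all 4 controls, and the difference of miR-29c-3p from miR-29b-3p overlaps between the groups.

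The probes of a strand can be set against those of another one by one. For miR-29b-3p against miR-29a-3p all 4 combinations of probes shifted upwards, by 0.10 to 0.13, and 2 of the 4 had groups that did not overlap. For miR-29c-3p against miR-29a-3p all 4 shifted upwards, by 0.11 to 0.13, and the groups were apart in 4 of the 4. For miR-29c-3p against miR-29b-3p the shift ran from -0.02 to 0.03 and the groups overlapped in each. These combinations share probes and arrays and are not independent of each other. At the level of miRNAs, 47.7% of the 153 bright pairs had groups that did not overlap. The share over combinations of probes was not computed.

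Across the 8 arrays miR-29b-3p and miR-29c-3p had a Pearson correlation of 0.89, while miR-29a-3p had one of 0.11 with miR-29b-3p and of 0.10 with miR-29c-3p. After the group means were removed the same 3 values were 0.76, 0.81 and 0.76. Outside the family, the tested miRNAs with the highest correlation with miR-29a-3p over the 8 arrays were miR-96-5p (0.91), miR-200b-5p (0.90) and miR-155-5p (0.83). For miR-29b-3p they were miR-34b-5p (0.88), miR-34a-5p (0.87) and miR-30b-5p (0.86). For miR-29c-3p they were miR-340-3p (0.90), miR-30b-3p (0.88) and miR-101a-3p (0.88). After the group means were removed, these values were 0.93, 0.86 and 0.78 for the list of miR-29a-3p. They were 0.72, 0.75 and 0.67 for that of miR-29b-3p and 0.80, 0.83 and 0.76 for that of miR-29c-3p. Each list holds the highest values before that step among the tested miRNAs outside the family, over 8 arrays of a shared slide, as a description.

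The other miRNAs that the literature links to kidney fibrosis formed a list of 27, of which 22 were tested. In db/db kidneys 5 rose, 4 fell and 13 did not pass, beside 24.4% higher and 17.4% lower over all tested miRNAs, and their median change was 0.05. These counts depended on the scaling. With the spike-ins 13 rose and 3 fell, beside 138 higher and 28 lower among all 316 miRNAs. Without scaling 8 rose and 3 fell, beside 100 higher and 28 lower among the 316. With the 75th percentile taken over all mouse miRNAs 0 rose and 1 fell, where 34 of the 316 passed. With normexp 8 rose and 5 fell, beside 61 higher and 64 lower among all 316 miRNAs. miR-34a-5p, a target of the tumour suppressor p53, rose by 0.64 (SE 0.09, limma adjusted p = 0.000922). miR-200c-3p and miR-141-3p, epithelial miRNAs of a common cluster, rose by 0.42 (SE 0.08, limma adjusted p = 0.00293) and 0.36 (SE 0.07, limma adjusted p = 0.00519).

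miR-132-3p fell by 0.75 (SE 0.13, limma adjusted p = 0.00233). miR-214-3p and miR-199a-3p, a clustered pair known from mesenchymal cells, fell by 0.44 (SE 0.08, limma adjusted p = 0.00292) and 0.42 (SE 0.06, limma adjusted p = 0.00101). These 6 were named for having the largest changes of the list; the other called members were miR-30c-5p (0.26), miR-30a-5p (0.17) and miR-199a-5p (-0.32).

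**Figure D4:**
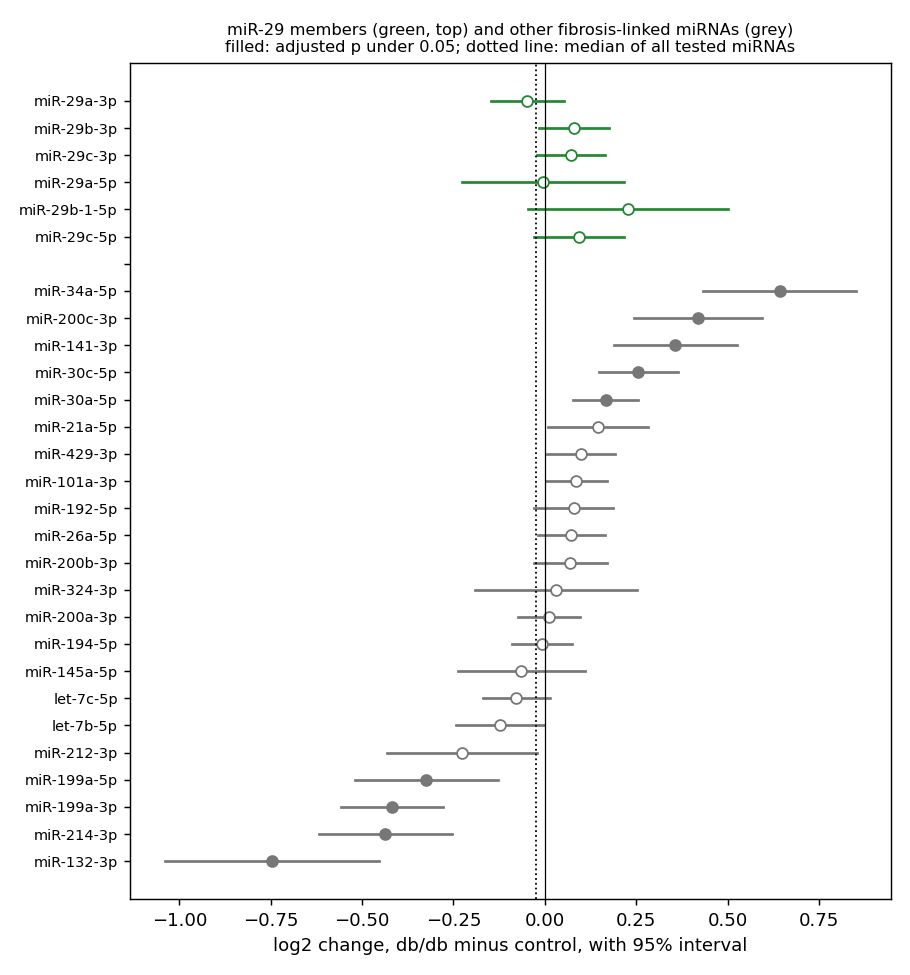
Log2 change between db/db and control with its 95% interval for the 6 tested miR-29 members (green) and the 22 tested miRNAs of the fibrosis-linked list (grey); filled points passed a limma adjusted p of 0.05 and the dotted line is the median of all tested miRNAs. All intervals of the miR-29 members include 0; the direction of miR-29a-3p and miR-29a-5p turns without scaling and with the labelling spike-ins.

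Among all 316 miRNAs, 77 were higher and 55 lower in db/db kidneys, 58.3% of the calls higher. That split was 100 to 28 without scaling, 138 to 28 with the spike-ins, 68 to 77 with quantile normalization and 61 to 88 with the brightest probe. Among marker miRNAs of cell types, for kidney epithelium 3 of 6 rose. The log2 of the summed signal of the 6, their summed level, was 13.82 to 13.91 in the controls and 13.98 to 14.03 in db/db. The brightest markers weigh most in a summed level. The 5 markers of smooth muscle, pericytes and fibroblasts held 3 that fell (summed levels of 10.44 to 10.70 against 10.24 to 10.35). For leukocytes 5 of 6 fell, with summed levels of 9.23 to 9.60 against 7.99 to 8.51. The hepatocyte miRNA miR-122-5p stood at the floor of 1.48 in every control and at 5.65 to 7.06 in db/db. The lists of endothelium and erythroid cells held no marker that passed of 2 tested each, with summed levels of 11.93 to 12.03 against 11.83 to 11.89 and of 9.46 to 11.58 against 9.33 to 11.80, and of 3 striated muscle markers 1 was tested and rose while 2 were detected on no array. The part of cell makeup in the shifts within the miR-29 family was not tested. All 8 arrays lay on 1 slide, with the controls in row 1 and the db/db samples in row 2, and the genotype and the row cannot be told apart.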

How the data were processed

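Kidney total RNA was measured in 4 control and 4 db/db samples, on 1 array each. The deposited intensity of each spot was written by version 12.0.3.1 of Agilent Feature Extraction. Spatial detrending was on and background correction off, per the file headers. The authors' deposited value table holds a linear ratio per miRNA and array. The log2 changes between db/db and control from it and from the scanner files' gene total signal had a correlation of 1 across 269 miRNAs. With a factor per miRNA and a factor per array taken out, the log2 values of both sources differed by at most 8.56e-06. The value table is therefore linear and higher means more signal. In it each miRNA and each array had been divided by a value, and the choice of the array's factor is unknown. Its column medians were 1.11, 1.10, 1.10 and 0.980 in controls and 0.857, 1.01, 0.994 and 0.947 in db/db samples. It served as an alternative only. Flags in the deposited files that are neither, such as outlier, well above background and detected, were used as given.

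Processed signals were averaged over the non-outlier spots of a probe and then over probes, scaled to equal 75th percentiles over the 269 miRNAs that every array detected, set to a floor of 2.80 where lower, and taken to log2. The 316 miRNAs detected on all 4 arrays of a group were fitted in R 4.3.3 by lmFit and eBayes of limma 3.58.1. The code was tested on simulated data. On arrays, the number of samples limits the precision, and 289 to 358 miRNAs were detected per array. No miRNA spot was saturated.

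The members, lists, pairs and tests were chosen with earlier results of these data known. The miRNAs named were all members, the 3 called miRNAs of the fibrosis-linked list with the largest change each way, and the 3 tested miRNAs most correlated with each 3p strand. Alternatives covered scaling, background correction, floor, filter, probe summary, test and single samples. Same replicate numbers, which are also slide columns, did not mark samples that deviate together (correlations of -0.43, 0.41, -0.05 and -0.07).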

Additional observations from a re-analysis of the deposited data

Results flagged for a closer look

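In the 18 groups of 4 arrays examined (6 members and 3 pairs of 3p strands, in 2 genotypes), 1 sample stood apart by Dixon's ratio of gap to range, and chance gives about 1 in 20. It was db/db replicate 1 in the difference miR-29c-3p minus miR-29a-3p, at -0.47 where the other 3 db/db arrays lay between -0.439 and -0.437. It lies on the side of the controls, and without it the shift between the groups was 0.13 in place of 0.12.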

How the results depend on the processing

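The number of miRNAs called was 34 in place of 132 when the 75th percentile was taken over all mouse miRNAs, and 113 to 139 when single samples were left out. For miR-29a-3p the sign turned without scaling (0.079) and with the spike-ins (0.13). The spike-ins took 4 members past the threshold, miR-29b-3p at 0.26, miR-29c-3p at 0.25, miR-29c-5p at 0.27 and miR-29b-1-5p at 0.40. miR-29c-3p turned to -0.0052 with the brightest probe and miR-29b-1-5p to -0.051 with normexp. The brightest probe also lowered miR-29b-3p to 0.0173 and miR-29c-5p to 0.0174, and took miR-29a-3p to -0.1151. Quantile normalization gave 0.0393 for miR-29b-3p, 0.0547 for miR-29b-1-5p and 0 for miR-29a-3p and miR-29c-3p, and the mean of log2 over probes gave 0.0255 for miR-29b-1-5p. miR-29a-5p had no settled sign, at -0.4116 with the mean of log2 over probes (limma adjusted p = 0.749), -0.21 with quantile normalization (limma adjusted p = 0.0379), 0.12 without scaling, 0.0087 with the percentile over all miRNAs, 0.17 with the spike-ins, 0.091 with the gene total signal, 0.0445 with the value table, 0.023 with the brightest probe and -0.0686 to 0.0595 without single samples. The cause was not tested. Over all 316 miRNAs, quantile normalization gave 145 calls.

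The shift of miR-29b-3p against miR-29a-3p was 0.0393 with quantile normalization and 0.11 to 0.14 without single samples; that of miR-29c-3p against miR-29a-3p was 0 and 0.10 to 0.13. With the replicate number as a block (sign flips within numbers, smallest possible p 0.125) they were 0.13 and 0.12, each with an exact adjusted p of 0.188, a design that cannot pass. That of miR-29c-3p against miR-29b-3p turned to 0.0024 with log2 means over probes and ran from -0.015 to 0.0064 without single samples. The same numbers did not pair the samples, and the block gave 144 calls over all miRNAs. The median of the fibrosis-linked list was 0.18 without scaling, 0.0245 with median scaling, -0.0238 with quantile normalization, 0.23 with the spike-ins, -0.0061 with the value table, 0.0129 with the brightest probe and 0.0268 to 0.0689 without single samples. Dim signal limits miR-29a-5p and miR-29b-1-5p.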
